A study of Mus musculus with 12 samples.

Results

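The cytosolic ribosomal protein genes encode the protein part of the ribosomes that translate nuclear mRNA. They were taken as the protein-coding mouse genes whose whole symbol is Rpl or Rps, a number and at most a suffix of the letters a, x, l or y and a further number, together with Rplp0, Rplp1, Rplp2 and Rpsa. Genes with a pseudogene suffix (-ps) were left out. This rule found 84 of the 33560 genes with counts, 32 of the small (40S) and 52 of the large (60S) subunit, and all 84 had values. It used no measured level.

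Poly(A) RNA was sequenced in 12 stranded libraries of glutamatergic neurons differentiated in culture from mouse embryonic stem cells, at day 21. Neurons were wild type (WT) or carried a deletion of a microexon of Daam1 (Daam1-MIC_KO, here KO); Daam1 is a formin that promotes actin filament assembly. Each of 3 WT and 3 KO cell lines gave 1 library after 2 h of vehicle (water) and 1 after 2 h of 10 µM Y-27632, a kinase inhibitor. The 4 groups thus held 3 libraries each: WT vehicle, WT inhibitor, KO vehicle and KO inhibitor. Nothing in the labels says whether a line is a single clone. The p-values therefore measure the spread between the libraries of these labelled lines. Unless stated, the 2 libraries of a line were not paired. Library totals ran from 23253566 to 35012561 counts. Because the deposited values are summed over whole genes, the deleted microexon cannot be seen in them and the genotype labels were not checked. The series text speaks of hippocampus, whereas every sample label describes cultured neurons, and the sample labels were followed.

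Ribosomal proteins join the ribosomal RNAs in near equal numbers, so cells make them in a coordinated way. In mammals their mRNAs typically start with a C followed by a run of pyrimidines, the 5′ terminal oligopyrimidine (TOP) tract, through which mTORC1 and the RNA-binding protein LARP1 control their translation and stability. MYC raises transcription of the same genes, and growing, dividing cells usually hold more ribosomal protein mRNA than resting neurons. The start of a ribosomal protein gene is therefore shown first, because the tract is what these mRNAs are known for. RefSeq promoter sequences (GRCm38.p6) matched 64 of the 84 genes. Each line gives 20 bases before and 20 from the annotated start, 5′ to 3′ on the gene's strand, with a tract (a C and at least 4 further C or T) in capitals where it lay within 5 bases of the start:
Rps6: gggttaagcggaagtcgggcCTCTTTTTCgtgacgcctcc
Rpl15: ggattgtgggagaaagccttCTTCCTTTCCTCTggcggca
Rps18: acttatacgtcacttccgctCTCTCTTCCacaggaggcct
Rpl38: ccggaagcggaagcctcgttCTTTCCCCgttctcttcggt
Rpl28: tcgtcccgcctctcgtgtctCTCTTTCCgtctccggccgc
Rps27l: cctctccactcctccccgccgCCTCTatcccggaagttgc
Rpl22l1: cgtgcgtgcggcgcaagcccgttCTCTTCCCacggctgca
Rpl22: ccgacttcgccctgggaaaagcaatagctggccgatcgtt
Rplp0: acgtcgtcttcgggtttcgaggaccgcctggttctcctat
Rpl41: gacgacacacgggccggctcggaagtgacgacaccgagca
These windows lie at chr4:86857348-86857387 (minus strand, Rps6), chr14:18270967-18271006 (minus, Rpl15), chr17:33955646-33955685 (minus, Rps18), chr11:114668560-114668599 (plus, Rpl38), chr7:4792945-4792984 (plus, Rpl28), chr9:66946066-66946105 (plus, Rps27l), chr3:28805488-28805527 (plus, Rpl22l1), chr4:152325706-152325745 (plus, Rpl22), chr5:115559447-115559486 (plus, Rplp0) and chr10:128549149-128549188 (minus, Rpl41). For Rpl22 and Rps27l, RefSeq lists more than 1 start, and 1 of them is shown.

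The first 5 of these genes start exactly with a tract. In Rps27l and Rpl22l1 the tract begins 1 and 3 bases downstream, and in Rpl22, Rplp0 and Rpl41 no such letters lie within 5 bases of the start. Over the family, 13 of 64 genes (20.3%) had a tract exactly at an annotated start, compared with 3.01% of 27025 genes with a promoter sequence. Within 5 bases, 29 of 64 (45.3%) had one, compared with 21.2% of all genes. The search used the gene's own strand, and annotated starts can differ by a few bases from those used in these cells, so the letters describe the annotation.

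Levels of different genes were compared on the deposited cRPKM scale, which divides reads by a gene length and by the library total. The edgeR filter on low counts kept 78 of the 84 genes, 31 of the small and 47 of the large subunit. Among these 78, mean cRPKM over the 12 libraries had a median of 251 (quartiles 111 and 364), whereas the median over all 15443 genes kept was 7.20. The small subunit genes had a median of 289 and the large subunit genes 231. In 76 of 78 genes the mean lay above the median of all genes, and 62 of 78 lay in the top 5% (79.5 cRPKM or more).

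The order within the family cannot be read as an order of mRNA abundance. Nearly all these genes have processed pseudogenes, and 81 of 84 shared a stretch of 50 letters with the transcript of a pseudogene. The ratio of count to cRPKM showed that the deposited values had been scaled by a number of positions that was often far below the transcript length. It was under 150 positions in 10 of the 78 genes. The highest mean, 2314 cRPKM (range 1633 to 3572), belonged to Rplp1, an acidic protein of the P-stalk that recruits translation factors, and was scaled by 40 positions. Rps24 followed at 991 (781 to 1690) with 311 positions, Rps15 at 832 (643 to 1242) with 429, Rpl26 at 628 (472 to 1067) with 477, and Rps29, a small zinc-binding protein, at 625 (246 to 942) with 260. Neighbouring genes in this order overlapped in their ranges.

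At the low end, Rplp2, the partner of Rplp1 in the stalk, was listed at 0.663 cRPKM (0.28 to 1.18) from 4 to 18 counts. Rps27a, made as a fusion with ubiquitin, was at 2.67 (1.07 to 4.78), Rpl9 at 9.43 (4.72 to 20.1), Rps12 at 10.1 (4.30 to 22.1) and Rpl41, a very short basic peptide, at 14.3 (9.56 to 22.3). The 6 genes that did not pass the filter were Rpl35 (1 to 15 counts), Rpl10 (0 to 2), Rps27 (0 in all 12 libraries, which allows up to 3 counts in each), Rpl3l (0 to 13), Rpl39l (0 to 9) and Rpl10l (0 to 3). Rpl10, Rpl35, Rps27 and Rplp2 are core subunits of the ribosome, so such values are no evidence that the mRNA was absent. Rplp1 and Rplp2, whose products work together in the stalk, stood at opposite ends of the order.

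Several family members are paralogs of a core gene. Their deposited values are given beside those of the parent, within the limit on the order of levels given above. Rpl3l, known from heart and skeletal muscle, was at 0.169 cRPKM beside 399 for Rpl3, and its counts shared no 50-letter stretch with another gene. Rpl39l was at 0.0975 beside 159 for Rpl39, and Rpl10l was at 0.0167 beside 0.294 for Rpl10. Rpl22l1, which can take the place of Rpl22 in the large subunit, was at 119 beside 130 for Rpl22, and the ranges of the pair overlapped (93.0 to 143 and 78.2 to 413). Rpl36al was at 108 beside 192 for Rpl36a, and Rpl7l1 at 21.6 beside 322 for Rpl7. Rps27l was at 59.6 (17.6 to 269) while its parent Rps27 was listed at 0.

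**Figure D1:**
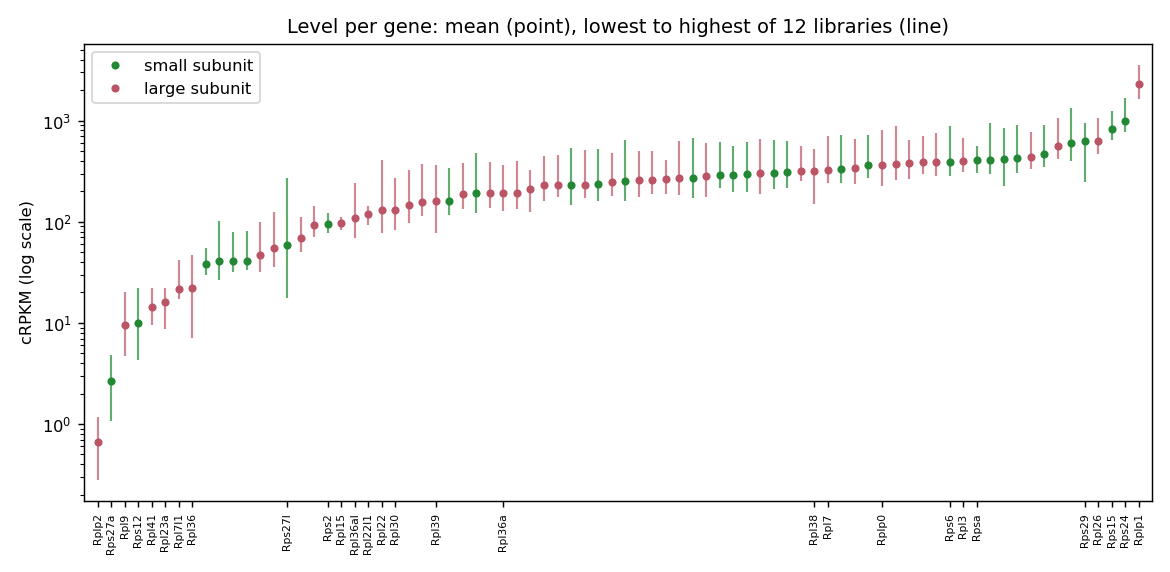
Mean deposited cRPKM (points, log axis) and lowest to highest of the 12 libraries (lines) for the 78 ribosomal protein genes that passed the filter, ordered by mean and coloured by subunit, with some of the genes labelled. Small and large subunit genes are mixed along the order, and the range runs from 0.663 (Rplp2) to 2314 (Rplp1).

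Between libraries, the family moved as a block. Ribosomal protein genes held 1.36%, 1.59% and 1.07% of all counts in WT vehicle (lines 1 to 3), 1.32%, 1.33% and 1.63% in WT inhibitor, 1.18%, 1.30% and 1.18% in KO vehicle, and 1.34%, 1.23% and 2.87% in KO inhibitor. The KO inhibitor library of line 3 was alone above 2% of counts, and the highest share was 2.70 times the lowest, that of the WT vehicle library of line 3. The ratio of small to large subunit counts stayed between 0.788 and 0.842 in the 12 libraries. Group means were 1.34% ± 0.265 (WT vehicle), 1.43% ± 0.179 (WT inhibitor), 1.22% ± 0.0704 (KO vehicle) and 1.82% ± 0.916 (KO inhibitor; SD, n = 3 each), and the ranges overlapped in each comparison of 2 groups that differ in genotype or treatment alone.

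The following values are log2 CPM, library-scaled counts with TMM factors, minus the mean of the same gene over the 12 libraries. The median over the 78 genes was 0.97 in the KO inhibitor library of line 3, where 77 of 78 genes were above their own mean. It was 0.24 in the WT vehicle library of line 2 (73 of 78 above) and 0.24 in the WT inhibitor library of line 3 (75 of 78 above). In the other 9 libraries it lay between -0.39 and -0.06, with -0.39 and 0 of 78 above in the WT vehicle library of line 3. The same median over all genes kept stayed between -0.04 and 0.05 in every library. These 3 high libraries had stood apart from the rest over all genes in earlier results of these data. The family medians of the comparisons below are given with and without them, and the medians of other gene lists with all 12 libraries only.

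Most of the spread of a typical member was shared. The median SD over the 12 libraries was 0.39 on the log2 scale and fell to 0.11 after the median of each library was subtracted from its members. The median SD over all genes kept, with nothing subtracted, was 0.37 and compares with the 0.39 alone. In 73 of 78 members the KO inhibitor library of line 3 was the highest of the 12, against 38.4% of all genes kept. In 65 of 78 the 3 high libraries exceeded each of the other 9, against 22.7% of all genes, and in 51 of 78 the WT vehicle library of line 3 was the lowest, against 6.60% of all genes.

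**Figure D2:**
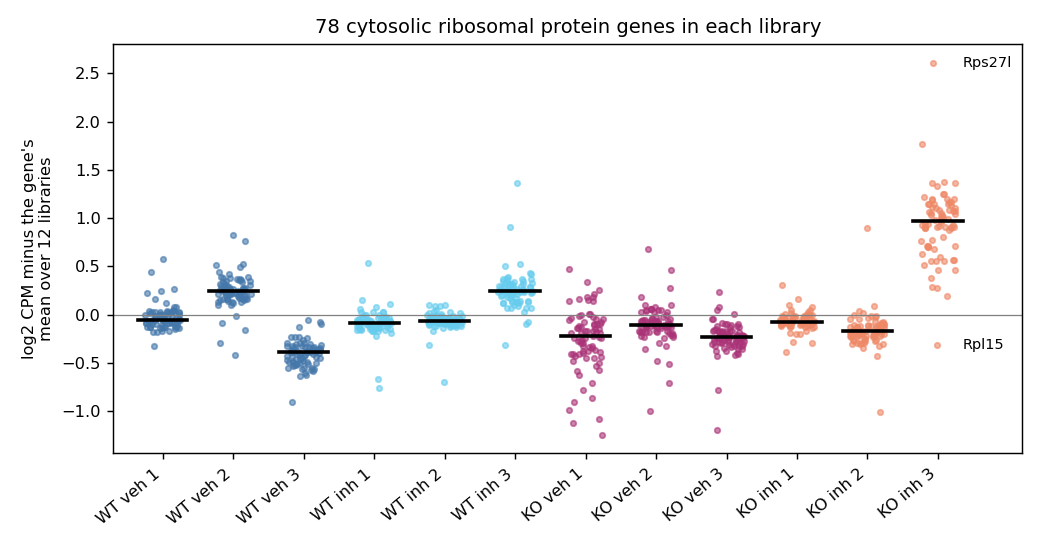
Each point is 1 of the 78 tested ribosomal protein genes in 1 library, as log2 CPM minus the mean of that gene over 12 libraries; black bars mark library medians and colours mark the 4 groups. The KO inhibitor library of line 3 sits at a median of 0.97 with Rpl15 below 0, and the WT vehicle library of line 3 lies wholly below 0.

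Some markers of other cells were high in the same libraries as the family, and others were not. Each of 6 lists held 10 marker genes, summed as CPM. Glutamatergic neuron markers came to 482 CPM in the KO inhibitor library of line 3 and to 1318 to 1760 in the other 11, and GABAergic neuron markers to 315 and 632 to 914. Astrocyte markers came to 1461 there and to 604 to 862 elsewhere, with 627 in WT inhibitor line 3, where the ribosomal protein genes were high. Aldoc, at a mean of 397 CPM, weighed most in this sum. The median deviation of the astrocyte list was highest in the same 3 libraries as the family. It was 2.65 in KO inhibitor line 3, 0.56 in WT vehicle line 2 and 0.31 in WT inhibitor line 3, and at most 0.04 in the other 9. In 6 of the 10 astrocyte genes these 3 libraries exceeded each of the other 9, against 22.7% of all genes kept. Of the 10 genes of each list, 6 glutamatergic and 7 GABAergic markers had their lowest value of the 12 libraries in KO inhibitor line 3, and 8 astrocyte markers had their highest there. Some went the other way: 2 glutamatergic and 2 GABAergic markers had their highest value in that library, and 2 astrocyte markers their lowest. Over all genes kept, 38.4% were highest in that library, and the share that was lowest there is not given here. Summed neural progenitor markers were highest in the same 3 libraries as the ribosomal protein genes, at 978 CPM (KO inhibitor, line 3), 370 (WT inhibitor, line 3) and 358 (WT vehicle, line 2). The sum lay between 51.2 and 154 in the other 9, with 51.2 in the WT vehicle library of line 3. All 10 progenitor genes were highest in KO inhibitor line 3, and in 6 of the 10 these 3 libraries exceeded each of the other 9. Pluripotency markers came to 216, 72.2 and 72.8 CPM in the same order and to 20.8 to 36.0 in the other 9, but Klf4 (166 CPM) and Fbxo15 (38.4 CPM) made up most of the 216. Esrrb was lowest in KO inhibitor line 3 (2.23 CPM), Pou5f1, Nanog and Utf1 were at 0.351 CPM or less in every library, and Tdgf1 and Dppa3 never exceeded 3 counts. Mesenchymal markers came to 607, 877 and 1330 CPM, against 38.6 to 406. In KO inhibitor line 3, Pdgfra alone gave 509 of the 607 CPM, with Col1a1 at 20.3 and Col3a1 at 22.0 CPM, and the median deviation of the list was -0.71. Of the labelled cell type, the vesicular glutamate transporter gene Slc17a6 was at 242 to 424 CPM in 11 libraries and 51.7 CPM in KO inhibitor line 3, whereas Slc17a7, Tbr1 and Neurod6 were at 0.541 to 2.07 CPM. Grin1 and Gria2, the highest of the list, are expressed by neurons in general. The part of the cell mix in the ribosomal protein levels was not tested, and in bulk RNA more cells of a kind cannot be told apart from more RNA per cell.

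Named members show what this movement looked like. Rplp0, the scaffold of the P-stalk, was at 407, 578 and 293 CPM in WT vehicle (lines 1 to 3), 406, 431 and 533 in WT inhibitor, 445, 392 and 389 in KO vehicle, and 426, 394 and 1001 in KO inhibitor. The 4 groups overlapped, and the highest value was that of KO inhibitor line 3. Rps6, the small subunit protein phosphorylated by S6 kinases, was at 283, 372 and 231 CPM in WT vehicle, 285, 292 and 364 in WT inhibitor, 290.3, 275 and 263 in KO vehicle, and 287, 264 and 697 in KO inhibitor. It thus followed the same pattern.

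The rise in KO inhibitor line 3 was not even. Over the 78 genes its log2 CPM exceeded the mean of the other 11 libraries by a median of 1.06 (2.08-fold), by 1.15 in the small and 0.99 in the large subunit. The extremes were Rps27l, at 2.85 (7.21-fold), and Rpl15, at -0.35 (0.787-fold). Rpl22 followed Rps27l with 1.93 (3.81-fold), whereas its paralog Rpl22l1 differed by 0.21 (1.16-fold). Small values were also seen in Rps2 (0.30) and Rpsa (0.41), the latter also known as the precursor of a laminin receptor. Genes with a TOP tract at the annotated start had a median of 1.03 (11 genes tested) and those without 1.07 (47 genes). In mean cRPKM these sets were at 233 and 231. These are descriptions of a single library.

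Rps27l, a paralog of Rps27 and a known target of p53, had the largest SD of all members after the library median was subtracted (0.78). It was at 16.4, 33.1 and 9.89 CPM in WT vehicle (lines 1 to 3), 17.9, 17.2 and 48.0 in WT inhibitor, 12.1, 11.4 and 8.08 in KO vehicle, and 18.8, 9.22 and 114 in KO inhibitor. Groups that differ in genotype or treatment alone overlapped. The high values were those of the same 3 libraries. Rpl22 was at 42.6, 62.4 and 34.5 CPM in WT vehicle, 46.4, 45.7 and 69.8 in WT inhibitor, 34.2, 37.8 and 35.8 in KO vehicle, and 44.1, 36.0 and 165 in KO inhibitor.

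Rpl15, a large subunit protein, was an exception to the block. It was at 129.8, 113 and 122 CPM in WT vehicle, 129.6, 136 and 118 in WT inhibitor, 151, 136 and 131 in KO vehicle, and 131, 129.8 and 102 in KO inhibitor (lines 1 to 3). Its lowest values came from the libraries in which most members were highest, and its SD over the 12 libraries was 0.14 on the log2 scale. At the annotated start, Rpl15 had a tract of 13 bases (CTTCCTTTCCTCT), beside 9 in Rps6 and 9 in Rps18. Any bearing of the tract on these levels was not tested. Rpl22l1 was at 60.7, 55.7 and 55.3 CPM in WT vehicle, 61.7, 59.9 and 70.4 in WT inhibitor, 48.2, 67.2 and 50.0 in KO vehicle, and 58.8, 59.2 and 67.8 in KO inhibitor. The other members with the largest residual spread were Rpl36 (0.59), Rpl23a (0.45) and Rps27a (0.44), whose mean counts were 12.9, 21.3 and 48.9 per library.

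**Figure D3:**
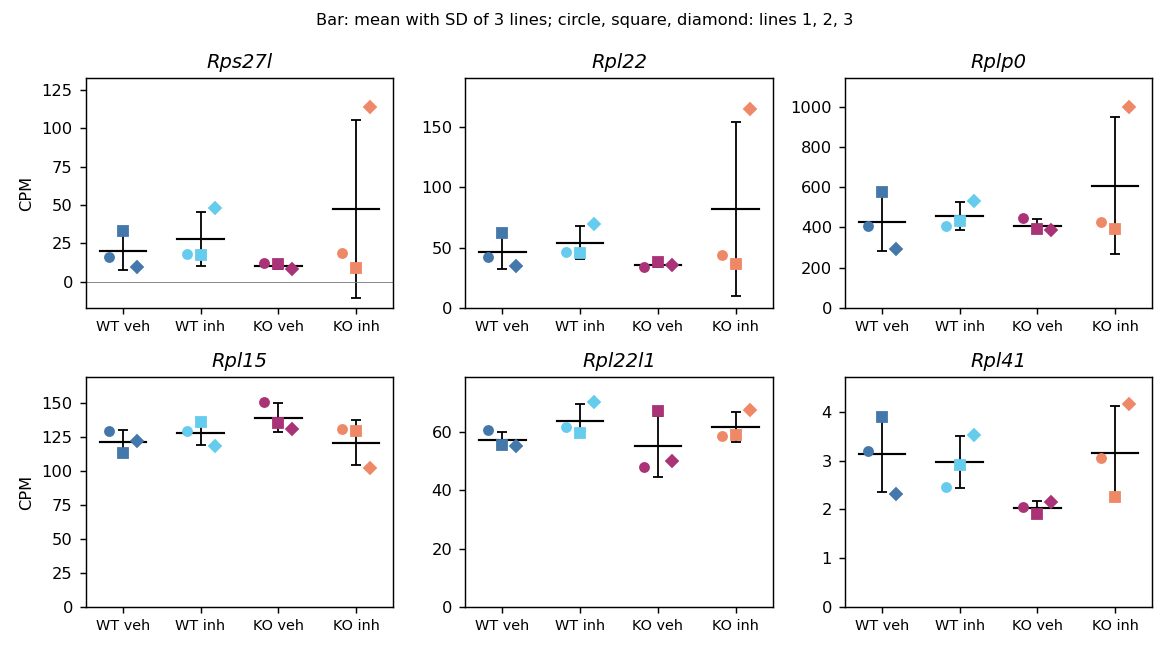
CPM of 6 ribosomal protein genes by group (linear axes), with the 3 lines as symbols and the mean with SD as bars; an SD bar of Rps27l reaches below 0 although counts cannot. In Rps27l, Rpl22 and Rplp0 the KO inhibitor library of line 3 stands above all others (114, 165 and 1001 CPM), whereas in Rpl15 it is the lowest at 102.

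The first comparison asked what the microexon deletion changed in vehicle-treated neurons. No ribosomal protein gene of the 78 tested reached an edgeR adjusted p below 0.05 (0.0% of all 15443 genes did), and 0 of 78 had an unadjusted p below 0.05, against 1.99% of all genes. DESeq2 called 0 of 78, with 1 at an unadjusted p below 0.05 (3.23% of all genes). The median log2 fold change was -0.13 with 9 of 78 members higher and 69 lower in KO, beside -0.01, 48.3% higher and 51.7% lower over all genes. The WT vehicle libraries of lines 2 and 3 held the highest and the lowest share of the 6. Leaving out WT vehicle line 2 gave a median of 0.02, and without the 3 high libraries it was 0.03, with 47 of 78 members higher.

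In this comparison Rpl41 had the smallest p of the members, at 3.20, 3.89 and 2.32 CPM in WT and 2.05, 1.90 and 2.16 CPM in KO (log2 difference -0.62 ± 0.29 SE, p of 0.058, edgeR adjusted p of 0.999). Its 3 KO values lay below the 3 WT values, as in 4.9% of all genes. Rpl15 was the member with the smallest p on the higher side, by 0.19 ± 0.13 (edgeR adjusted p of 0.999), with all 3 KO values above the 3 WT values, as in 7.62% of all genes. Rpl23 differed by -0.39 ± 0.34 and Rpsa by 0.14 ± 0.19, and their groups overlapped. All 4 differences missed the threshold.

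In 1 library of this comparison the levels of the members followed coding length more closely than in the rest. The relation was looked for after the values had been seen. In the KO vehicle library of line 1, the deviation of a member rose with the length of its coding sequence (69 members with a mean of at least 10 CPM; Pearson's r of 0.72 and Spearman's rho of 0.73 across genes, which share the library and are not independent). In the other 11 libraries r ranged from -0.60 to 0.12. The 23 shortest (153 to 405 nt) had a median deviation of -0.45, the 23 of middle length -0.19 and the 23 longest (612 to 1257 nt) -0.10, whereas other genes of the same coding lengths were at -0.03, 0.02 and 0.04. Rps29 (168 nt) was at 65.9 CPM there and at 133 to 231 CPM in the other 11 libraries, Rpl38 (210 nt), known for its role in patterning the skeleton, at 49.6 against 83.2 to 158, and Rpl39 (153 nt), which lines the peptide tunnel, at 44.7 against 66.2 to 192. These genes were singled out after their values were seen. The KO against WT median in vehicle was -0.21, -0.12 and -0.10 over these 3 sets from short to long, and -0.10, -0.14 and -0.13 without that library. What set this library apart was not tested.

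**Figure D4:**
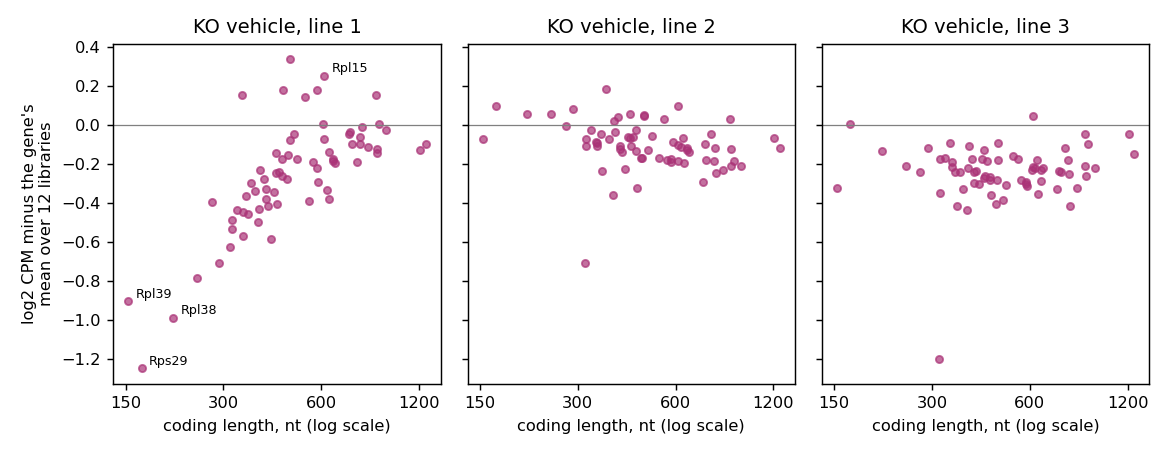
Deviation of 69 ribosomal protein genes from their mean over 12 libraries (log2 CPM) against coding length (log axis) in the 3 KO vehicle libraries. In line 1 the points rise with length (r of 0.72), with Rps29, Rpl38 and Rpl39 lowest; in lines 2 and 3 r is -0.25 and 0.12.

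In inhibitor, KO was compared with WT neurons next. No member of 78 was called by edgeR (0.0% of all genes), 0 of 78 had an unadjusted p below 0.05 (3.5% of all genes), and DESeq2 called 0 of 78, with 0 at an unadjusted p below 0.05 (5.61% of all genes). The median log2 fold change was 0.31, with 75 of 78 members higher and 3 lower in KO, beside 0.00, 49.9% and 50.1% over all genes. That median rested on KO inhibitor line 3. Without that library it was -0.16, and without all 3 high libraries it was -0.01 with 36 of 78 members higher. Rpl23a, near the tunnel exit, had the smallest p (0.66 ± 0.31, p of 0.057, edgeR adjusted p of 0.856). Its KO values (0.906, 0.607 and 0.891 CPM) lay above the WT values (0.394, 0.562 and 0.562), as in 3.51% of all genes (no member lay wholly below, as 7.03% of all genes did), from 12 to 29 counts per library over all groups. Rpl9 differed by 0.80 ± 0.54, Rpl15 by -0.08 ± 0.13 and Rps27a by -0.23 ± 0.40, and their groups overlapped.

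The effect of the inhibitor was then read within each genotype. In WT neurons 0 of 78 members were called by edgeR (0.0% of all genes), and the only member at an unadjusted p below 0.05 (0.304% of all genes) was Rpl23a; DESeq2 called 0 and had 1 at that level (0.427% of all genes). Rpl23a was at 0.860, 1.05 and 0.653 CPM in vehicle and at 0.394, 0.562 and 0.562 CPM in inhibitor, without overlap (as in 2.93% of all genes; no member lay wholly above, as 3.04% did), with a log2 difference of -0.75 ± 0.31 (p of 0.0345, edgeR adjusted p of 1.00). Rpl22l1 differed by 0.16 ± 0.14, Rps27a by 0.45 ± 0.40 and Rpl9 by -0.58 ± 0.55. The median over the members was 0.09, with 68 of 78 higher, beside 0.01 and 53.4% over all genes. It was 0.13 without the 3 high libraries. Leaving out WT vehicle line 3 gave -0.06.

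In KO neurons 0 of 78 members were called (0.0% of all genes), and 4 of 78 had an unadjusted p below 0.05, beside 7.05% of all genes. DESeq2 also called 0 of 78 and had 9 at that level (11.5%), beside 14.0% of all genes. The 4 were Rps27l (2.17 ± 0.87, p of 0.0326), Rpl22 (1.19 ± 0.51), Rpl39 (0.85 ± 0.37) and Rpl30 (0.66 ± 0.29), each with an edgeR adjusted p of 0.474. The inhibitor and vehicle libraries overlapped for the first 3. Without the 3 high libraries, Rps27l differed by 0.42 ± 0.32, Rpl22 by 0.17 ± 0.11, Rpl39 by 0.27 ± 0.24 and Rpl30 by 0.22 ± 0.14. With the cell line as a block, which pairs the vehicle and inhibitor libraries, Rps27l differed by 1.27 (edgeR adjusted p of 0.64).

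The median over the members in KO neurons was 0.54, with 75 of 78 higher, beside -0.02 and 48.2% over all genes. It was 0.07 without KO inhibitor line 3 and 0.08 without all 3 high libraries. Leaving out KO inhibitor line 2 or line 1, so that line 3 weighed more, gave 47 and 29 of 79 members at an unadjusted p below 0.05, while 26.1% and 14.9% of all genes were at that level in the same fits. In 5 members all 3 inhibitor values exceeded all 3 vehicle values, as in 3.19% of all genes, and in 0 members did the reverse hold (5.65% of all genes). Among them were Rpl3, Rpl30, Rpl41 and Rps14. Rpl3, which lies close to the peptidyl transferase centre, was at 445, 465 and 472 CPM in vehicle and at 481, 481 and 789 CPM in inhibitor. The first 2 inhibitor values were close to the highest vehicle value. Rpl41 was at 2.05, 1.90 and 2.16 CPM in vehicle and 3.06, 2.26 and 4.17 CPM in inhibitor. On the lower side the members with the smallest p were Rpl15 (-0.20 ± 0.13) and Rpl23a (-0.02 ± 0.30).

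Within each line, the inhibitor library was compared with its vehicle library. The median difference over the 78 genes was -0.03, -0.30 and 0.63 in WT lines 1 to 3 and 0.12, -0.07 and 1.18 in KO lines 1 to 3. The number of members that were higher in inhibitor was 27, 4 and 76 of 78 in WT and 58, 16 and 77 of 78 in KO. The lines thus differed in direction within both genotypes. Both lines numbered 3 were high, and WT line 3 combined the lowest vehicle library with a high inhibitor library. Over all genes the same medians lay between -0.01 and 0.04.

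The interaction asked whether the inhibitor acted differently in KO and WT neurons. No member of 78 was called (0.0% of all genes) and 0 of 78 had an unadjusted p below 0.05 (1.2% of all genes), with 0 and 0 by DESeq2 (3.29% of all genes unadjusted). The median was 0.45, with 75 of 78 members positive (49.2% of all genes), and -0.02 without KO inhibitor line 3. Without the 3 high libraries it was -0.04, with 50 of 78 negative. Rpl41 had the smallest p (0.71 ± 0.41, edgeR adjusted p of 0.808), followed by Rpl23a (0.73 ± 0.43), and on the negative side stood Rpl15 (-0.28 ± 0.18) and Rpl29 (-0.10 ± 0.35). These comparisons share libraries with each other, and their values are given side by side.

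Over both treatments, the 2 libraries of each line were summed and 3 KO lines were compared with 3 WT lines, over 79 members. No member was called (0.0% of 16090 genes) and 0 of 79 had an unadjusted p below 0.05 (2.65% of all genes), with 0 and 0 by DESeq2 (4.14% of all genes unadjusted). The median was 0.15 with 72 of 79 higher, beside 0.04 and 60.7% over all genes. Without the 3 high libraries it was 0.02, with 46 of 79 higher. Without KO line 3 it was -0.13, and 13 of 79 members (16.5%) then had an unadjusted p below 0.05, beside 13.1% of all genes. Rpsa (0.18 ± 0.12) and Rpl9 (0.49 ± 0.35) had the smallest p on the higher side, and Rpl41 (-0.17 ± 0.23) and Rpl3l (-0.28 ± 0.41) on the lower side, all at an edgeR adjusted p of 0.998.

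**Figure D5:**
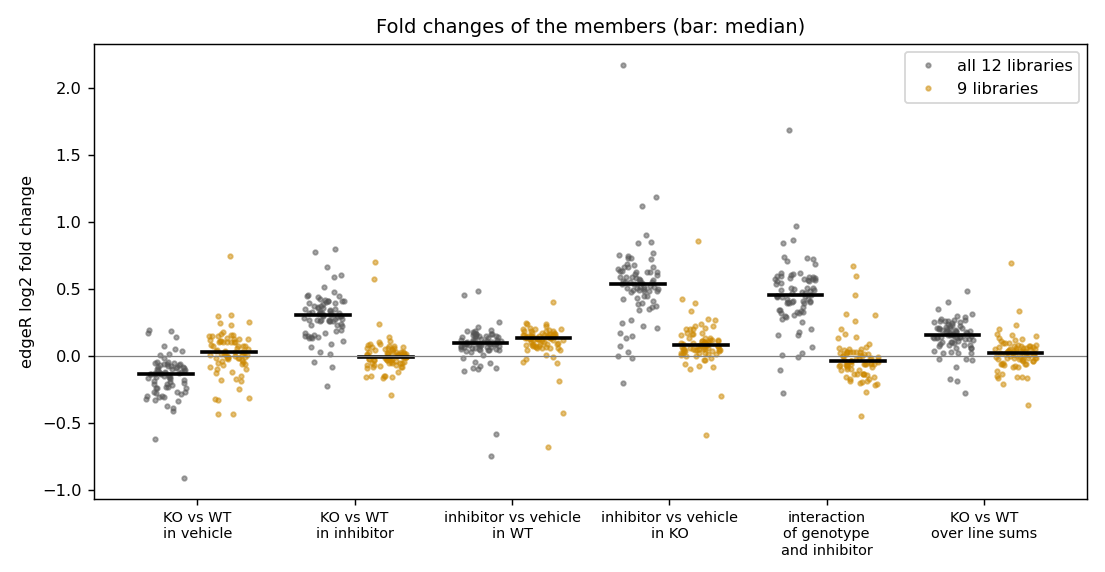
edgeR log2 fold changes of the tested ribosomal protein genes in the 6 comparisons, from all 12 libraries (grey) and without the 3 high libraries (orange); black bars are medians. The medians of -0.13, 0.31, 0.54 and 0.45 (KO against WT in vehicle and in inhibitor, inhibitor in KO, interaction) move to 0.03, -0.01, 0.08 and -0.04.

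Genes of the same pathway were counted in the same 6 comparisons, and no gene of the following lists was called in any of them. The medians of these lists include the 3 high libraries and are not given without them. The list of 26 translation factors and other genes with TOP mRNAs had medians of -0.10 (KO against WT, vehicle), 0.22 (KO against WT, inhibitor), 0.05 (inhibitor in WT), 0.30 (inhibitor in KO), 0.28 (interaction) and 0.14 (line sums). At an unadjusted p below 0.05 it held 1, 0, 0, 0, 0 and 0 genes. Eef1a1, the elongation factor that delivers tRNA to the ribosome, was at 2030 to 3603 CPM in 11 libraries and at 6444 in KO inhibitor line 3 (inhibitor in KO 0.66 ± 0.37, edgeR adjusted p of 0.474). Its paralog Eef1a2, the form of mature neurons, was at 414 to 575 CPM in 11 libraries and at 144 in that library. Eef2, the translocation factor, differed by 0.15 ± 0.19 in the same comparison. Rack1, a protein of the small subunit that the symbol rule does not cover, was at 193 to 412 CPM in 11 libraries and at 793 in KO inhibitor line 3. Rack1 and Eef1a2 were named after their values were seen.

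For ribosome biogenesis, 39 of 40 listed genes were tested, with medians of -0.05, 0.08, 0.04, 0.17, 0.19 and 0.03 in the same order and 0, 1, 0, 0, 1 and 0 genes at an unadjusted p below 0.05. Ncl, nucleolin, was at 274 to 419 CPM in 11 libraries and 501 in KO inhibitor line 3, and Nop56, of the box C/D snoRNP, at 171 there and 151 to 190.3 elsewhere. The regulators of ribosomal protein mRNA (mTORC1 subunits, Larp1, Myc and related genes, 19 of 20 tested) had medians of -0.07, -0.02, 0.01, -0.01, -0.01 and 0.00, with 0, 0, 0, 1, 0 and 1 genes at that level. Larp1 differed by -0.05 ± 0.12 and Mtor by -0.21 ± 0.26 between inhibitor and vehicle in KO.

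The 77 mitochondrial ribosomal protein genes, whose products form the separate ribosome of mitochondria, had medians of 0.03, -0.01, 0.05, 0.02, -0.03 and 0.03, with 0, 2, 0, 2, 0 and 0 genes at an unadjusted p below 0.05. Their median deviation in KO inhibitor line 3 was 0.10, beside 0.97 for the cytosolic family. In that library it was 0.59 for the list with TOP mRNAs, 0.47 for ribosome biogenesis and -0.04 for the regulators. Mrps5 differed by -0.44 ± 0.23 and Mrpl12 by -0.06 ± 0.09 between inhibitor and vehicle in KO. The 13 protein-coding genes of the mitochondrial genome had medians of 0.06, -0.41, 0.12, -0.36, -0.47 and -0.16, with 0, 1, 1, 0, 0 and 2 genes at that level. They took 9.60% of counts in KO inhibitor line 3 and 12.8% to 17.4% in the other 11. In the comparison of inhibitor and vehicle in KO, mt-Co1 differed by -0.35 ± 0.23 and mt-Atp6 by -0.39 ± 0.22. Whether the cytosolic family differed from these lists was not tested.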

How the data were processed

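The authors deposited, per library, a table of 36902 genes with an Ensembl identifier, a cRPKM value and a read count. The deposited counts are raw whole numbers. The second deposited measure, cRPKM, is an RPKM (reads scaled by length and library size) whose correction is not given in the sources used here; among 1851 genes above 2000 counts throughout, the columns carried the same measurement. The build was mm10, per the submitters' processing notes; aligner, counting and annotation are not given in the sources used here. There were 3342 genes listed as NA for each library, which were left out. Symbols, biotypes and coding lengths came from GENCODE for the same identifiers, and start sequences from RefSeq.

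Counts were tested with edgeR 4.0.16 in R 4.3.3 (filterByExpr, TMM, quasi-likelihood F test with robust estimation), with 12 libraries in 1 fit and 1 coefficient per group, or on line sums. Benjamini-Hochberg adjustment ran over all genes tested, and calls needed an adjusted p below 0.05. Standard errors are log2 fold changes over the root of F. The biological coefficient of variation was 0.411 (0.36 for line sums). Log2 CPM used a prior count of 2. The number of scaled positions of a gene is its count divided by its cRPKM and by the library total. Alternatives were DESeq2 1.42.0, library totals, RLE factors, no filter, a block, each library or line left out, and 3 libraries left out together. The fit was tested on simulated data.

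The members and lists were chosen with earlier results of these data known. Members were named by highest and lowest 5 mean cRPKM, the 2 smallest p-values in each direction of each comparison, the 5 largest residual SDs, and role (stalk proteins, Rpsa, paralogs and their parents); other lists by the 2 highest means. Rps4l, among the paralogs of this naming rule, is not among the 84 genes and is not analysed here, and some items are not reported here. Vehicle and inhibitor libraries of a number come from the same labelled line. Correlations of their deviations from the group means were 0.41, -0.55 and -0.72 in WT and -0.19, 0.57 and -0.37 in KO (lines 1 to 3). KO and WT lines share a number in the labels but no stated source; the same correlations between same-numbered KO and WT libraries were -0.35, -0.65 and 0.17 in vehicle and 0.38, 0.65 and 0.80 in inhibitor, all above 0.1 in inhibitor alone. The block was the cell line for the inhibitor effects and the interaction and the replicate number for KO against WT.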

Additional observations from a re-analysis of the deposited data

How the results depend on the processing

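No ribosomal protein gene was called under any alternative in any of the 6 comparisons, by edgeR or DESeq2. Over all genes DESeq2 called 11 (KO against WT, vehicle), 18 (inhibitor) and 87 (line sums), where edgeR called 0; edgeR called 2 over line sums without the filter, and 2, 1 and 2 in these 3 comparisons without the 3 high libraries. The member medians depended on single libraries. Without the 3 high libraries they were 0.028 (KO against WT, vehicle), -0.0064 (KO against WT, inhibitor), 0.078 (inhibitor in KO) and -0.042 (interaction). With 1 library left out they ranged from -0.29 to 0.023 (KO against WT, vehicle), -0.16 to 0.47 (KO against WT, inhibitor), -0.057 to 0.23 (inhibitor in WT), 0.065 to 0.73 (inhibitor in KO) and -0.022 to 0.65 (interaction), and with 1 line left out from -0.13 to 0.28 (line sums). With the replicate block the medians were -0.15, 0.27, 0.11, 0.44, 0.34 and 0.12, in the order used for the lists; the block changed no call. Group shares of counts became 4.14%, 3.79%, 4.30% and 5.56% of summed cRPKM (WT vehicle, KO vehicle, WT inhibitor, KO inhibitor). Without mitochondrially encoded genes they were 1.58%, 1.44%, 1.69% and 2.05% of counts in the same order. With 1 library left out the shares of all counts ranged from 1.21% to 1.48%, 1.18% to 1.24%, 1.32% to 1.48% and 1.29% to 2.11%. Single members changed sign as follows. Without the 3 high libraries, Rpl15 was at 0.014 (KO against WT, inhibitor), Rps27a at -0.046 (inhibitor in WT) and Rpl3l at 0.23 (line sums). Rpl23a (inhibitor in KO) was at 0.043 with library totals, 0.0025 with RLE factors and 0.0023 without the filter. With 1 library or line left out the ranges crossed 0 for Rpsa (-0.0093 to 0.29, KO against WT in vehicle), Rpl15 (-0.15 to 0.028) and Rps27a (-0.43 to 0.14, both KO against WT in inhibitor), Rpl23a (-0.14 to 0.19, inhibitor in KO), Rpl29 (-0.41 to 0.057, interaction) and Rpl3l (-0.47 to 0.076, line sums). The cause of these changes was not tested. Depth limited the 8 of 78 members tested that had a mean under 100 counts, and 62 had at least 1000. At any depth, 3 libraries per group and a biological coefficient of variation of 0.411 also limited what could be called.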
